A study of Mus musculus with 28 samples.

Results

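Prx1-Cre-driven deletion of Zmpste24 (Z24) was used in the study as a model of premature aging of limb skeletal cells, and skeletal stem/progenitor cells were sorted from both growth plate and periosteum. The question addressed here is which transcripts separate the growth plate cells (gpSSPCs) from the periosteal cells (pSSPCs) once Z24 has been deleted, and whether these differences were kept, narrowed or widened relative to the control mice. The 6 RNA-seq libraries labelled as CKO were taken, 3 of gpSSPCs and 3 of pSSPCs, out of 28 libraries of all kinds in the series. The 6 control RNA-seq libraries of the same 2 populations served as the comparison, and 6 ATAC-seq libraries of the CKO cells were used for promoter peaks.

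CKO mice were Prx1-Cre; Z24 fl/fl. The genotype field of the labels reads the same for control and CKO bulk libraries, and the sample titles are what separates them, so the genotype of the bulk controls is not given in the sources used here beyond the Prx1-Cre line. Controls of the single-cell libraries of the study were labelled Prx1-Cre; Z24 fl/+. All 12 libraries are labelled as 20 weeks old and as 1000 sorted td-Tomato-positive cells. The Ai9 reporter (td-Tomato) marks cells in which Cre has acted, and Prx1-Cre acts in the limb bud mesenchyme, so cartilage, bone, periosteum and other limb connective tissue can all carry it. GpSSPCs were Ai9+ CD73+ cells from minced, collagenase-digested growth plates. PSSPCs were Ai9+ Sca1+ cells from periosteum that was scraped off and digested with collagenase and dispase. Per the study's methods, cells of both preparations were stained for CD31, CD45 and Ter119, markers of endothelial, blood and erythroid cells, before the sort. Tissue, surface gate and digestion differ together between the populations and cannot be told apart in this contrast. In sorted bulk samples, fewer cells of a type and less RNA per cell cannot be told apart either.

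The growth plate is a layer of cartilage in which chondrocytes rest, divide in columns and enlarge before the matrix is replaced by bone. Its matrix is built from type II, IX and XI collagen and the proteoglycan aggrecan under control of the SOX9, SOX5 and SOX6 transcription factors. The periosteum is the fibrous sheath of bone, whose inner layer holds progenitors for the cortical surface and whose outer layer resembles other fibroblast-rich connective tissue, with type I and III collagen, decorin and elastic fibers. ZMPSTE24 is the zinc metalloprotease that cleaves farnesylated prelamin A to mature lamin A, and its loss leaves prelamin A at the nuclear envelope.

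Total counts were 1838028, 2596484 and 4047763 in CKO gpSSPC libraries 1, 2 and 3 and 1875248, 3264327 and 5315709 in CKO pSSPC libraries 1, 2 and 3. The control totals were 2366909, 3196895 and 5035209 in gpSSPCs and 1333260, 3040833 and 4970995 in pSSPCs. Libraries 1 stood apart from libraries 2 and 3 in every group. At an equal total of 1333260 counts, libraries 1 detected 12082 to 12441 genes and libraries 2 and 3 detected 14214 to 15272, and mitochondrial counts were 2.4 to 3.86% in libraries 1 against 1.29 to 1.79% in the others. The first principal component, with 48.4% of the variance, separated libraries 1 from the rest, and the second, with 18.3%, separated gpSSPCs from pSSPCs. Libraries 2 and 3 of a group could not be told apart beyond sampling noise where genes had 5 to 99 counts (chi-square per gene 0.82 to 0.98, against 10.1 to 13.1 for any pair with library 1). Over genes with at least 20 counts and no upper limit, the value for libraries 2 and 3 was 1.59 to 1.92. They were therefore counted as 1 sample, which leaves 2 samples a group and 3 residual degrees of freedom. The edgeR test added a median of 26.8 prior degrees of freedom taken from the spread of all genes. Small p-values thus rest largely on that shared spread and not on the gene's own. Nothing in the labels says that libraries came from separate animals, so the p-values measure only the spread between these samples, which may be technical.

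The targeted gene was examined first. Z24 (Zmpste24) had 2, 21 and 29 counts in CKO gpSSPC libraries 1, 2 and 3 and 0, 28 and 41 counts in the CKO pSSPC libraries. In control cells it had 11, 48 and 80 counts in gpSSPCs and 1, 51 and 84 counts in pSSPCs. Scaled to library size, libraries 2 and 3 held 7.24 to 8.32 CPM (counts scaled to a common library size) in CKO cells and 15.1 to 16.6 CPM in control cells. Within each library number, the CKO value lay below the control value in both populations, and CKO transcript remained, in counts that do not show whether the deleted part was transcribed. Within CKO cells, gpSSPCs and pSSPCs held similar levels in libraries 2 and 3, and the log2 difference was 0.69 ± 1.30 (edgeR quasi-likelihood test, adjusted p = 0.91). Nt5e, which encodes CD73, and Ly6a, which encodes Sca1, chose the cells and are given as a check of the labels. Nt5e stood at 139, 347 and 312 CPM in CKO gpSSPC libraries 1, 2 and 3 and at 44.9, 53.4 and 45.4 CPM in CKO pSSPC libraries. Ly6a stood at 359, 823 and 823 CPM in CKO gpSSPCs and at 1187, 2750.2 and 2913 CPM in CKO pSSPCs. Each was higher in the population it was sorted for, without overlap.

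In CKO cells, 165 genes were higher in gpSSPCs and 146 were higher in pSSPCs at an adjusted p below 0.05, which is 1.25% and 1.11% of the 13173 genes tested (edgeR with replicate number as a block, Benjamini-Hochberg adjustment). In control cells, 164 genes (1.24%) were higher in gpSSPCs and 312 (2.37%) were higher in pSSPCs. Without the block, the tool called 0 genes in either genotype, with 568 genes in CKO and 815 in control at an unadjusted p below 0.05. With the block, the unadjusted counts were 1524 and 1875 genes. Of the 311 genes called in CKO cells, 310 had the sign of the fit within each of library numbers 1, 2 and 3, against 6202 of all 13173 tested. The fit used these same libraries, so this share describes the called genes and is no separate check. Of the 311, 273 showed no overlap between the 3 gpSSPC and the 3 pSSPC libraries. Among all tested genes, 11% were without overlap toward gpSSPCs and 12.1% toward pSSPCs.

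Most of the genes called between the CKO populations were also called between the control populations. Called with the same sign in CKO and in control cells were 214 genes (1.62% of those tested), of which 114 were higher in gpSSPCs and 100 in pSSPCs, and 0 genes were called with opposite signs. These 214 genes are 68.8% of the genes called in CKO and 45% of those called in control. Among the 114 higher in gpSSPCs, the median absolute log2 difference was 1.93 in CKO and 1.94 in control, and 43 were smaller in CKO. Among the 100 higher in pSSPCs, the median was 1.65 in CKO and 1.96 in control, and 76 were smaller in CKO. A call in CKO alone was made for 97 genes, of which 91 had the same sign in control. Over all 97, the median absolute log2 difference was 0.91 in control and 2.03 in CKO. A call in control alone was made for 262 genes, of which 249 had the same sign in CKO. Over all 262, the median absolute log2 difference was 0.89 in CKO and 1.93 in control. A threshold passed in 1 genotype alone favours the larger value in that genotype, so these medians do not by themselves compare the genotypes. Over all 13173 genes, with no selection, the median absolute log2 difference was 0.70 in CKO and 0.81 in control, with 7055 genes smaller and 6118 larger in CKO. Among the 3051 genes with a mean of at least 50 CPM, it was 0.41 against 0.52, with 1775 smaller and 1276 larger in CKO. Across these genes, which are not independent replicates and share depth and library number, the differences in CKO and in control had a Pearson r of 0.68. Median absolute differences also grow with noise, which may differ between the genotypes. Control pSSPC library 1 had the lowest total of these libraries (1333260 counts), and its part in these medians was not tested.

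**Figure D1:**
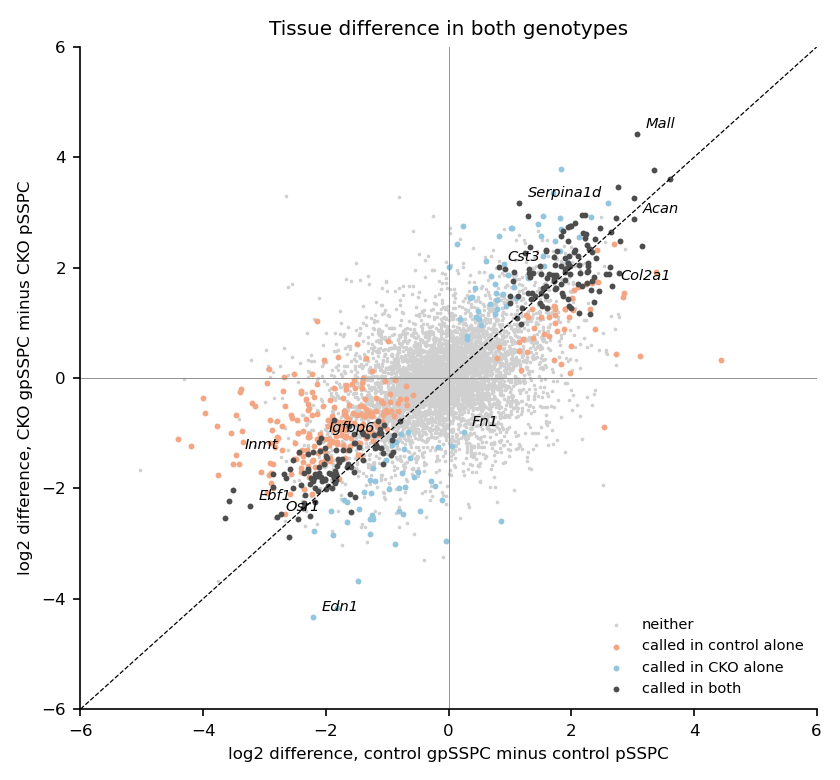
Log2 difference between gpSSPCs and pSSPCs in control cells (horizontal axis) and in CKO cells (vertical axis) for the 6033 genes with a mean of at least 20 CPM, with values above 0 for genes higher in gpSSPCs. Dark points were called in both genotypes, orange in control alone and light blue in CKO alone, and the dashed line marks equal differences. All dark points lie in the quadrants of equal sign, and on the periosteal side many lie closer to 0 on the CKO axis.

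A test of the difference itself, the interaction of population and genotype, passed an adjusted p of 0.05 for 2 of 13173 genes (0.0152%), both widened in CKO cells, and for 0 narrowed genes. At an unadjusted p below 0.05, 648 genes (4.92%) passed, comprising 109 narrowed, 49 widened and 490 of opposite sign in CKO and control. That share is about what an unadjusted threshold of 0.05 lets through where no gene differs. These counts therefore do not by themselves show altered genes. Without the block the interaction called 0 genes, with 125 at an unadjusted p below 0.05. Without a filter on low counts it called 23 genes (7 narrowed, 7 widened and 9 of opposite sign), and with each library as a sample 13 (2, 2 and 9). DESeq2 called 1 gene, 2010001A14Rik, of opposite sign, which is named after its values were seen. The single genes described next as narrowed are therefore given by their values and as having missed the threshold, unless stated otherwise.

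The widened genes were Serpina1d and Cst3. Serpina1d (ENSMUSG00000071177, chr12:103763594-103773592 in GRCm38, minus strand) encodes a member of the alpha-1-antitrypsin family of secreted serine protease inhibitors, which mice carry as a cluster of close copies. Promoter sequences of the 5 copies are printed because all of them were higher in CKO gpSSPCs and because they show how far the copies resemble each other. Each is 99 bases from RefSeq on GRCm38.p6, minus strand, 5′ to 3′, at chr12:103863621-103863719 (a), chr12:103738196-103738294 (b), chr12:103904958-103905056 (c), chr12:103773630-103773728 (d) and chr12:103956956-103957054 (e). Capitals mark the longest unbroken run identical in all of them, 59 bases that were found in 5 of 32851 promoter windows (0.0152%).
Serpina1a: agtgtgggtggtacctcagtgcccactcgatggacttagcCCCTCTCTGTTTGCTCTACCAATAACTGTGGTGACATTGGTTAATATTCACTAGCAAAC
Serpina1b: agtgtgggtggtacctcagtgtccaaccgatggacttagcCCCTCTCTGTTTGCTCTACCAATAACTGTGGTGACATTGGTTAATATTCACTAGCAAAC
Serpina1c: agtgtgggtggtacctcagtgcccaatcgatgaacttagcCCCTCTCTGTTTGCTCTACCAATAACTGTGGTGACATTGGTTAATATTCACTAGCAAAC
Serpina1d: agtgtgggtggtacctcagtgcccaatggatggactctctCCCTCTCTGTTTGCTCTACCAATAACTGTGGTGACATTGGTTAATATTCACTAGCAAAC
Serpina1e: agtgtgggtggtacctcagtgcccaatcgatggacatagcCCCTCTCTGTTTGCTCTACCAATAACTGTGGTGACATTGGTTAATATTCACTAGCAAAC

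Serpina1d stood at 5176, 5028 and 5912 CPM in CKO gpSSPC libraries 1, 2 and 3 and at 629, 565 and 554 CPM in CKO pSSPC libraries. In control cells it stood at 1131, 1943 and 2116 CPM in gpSSPCs and at 712, 669 and 666 CPM in pSSPCs. The 3 CKO gpSSPC libraries were the highest of all 12, and the pSSPC libraries of both genotypes lay within 554 to 712 CPM. The log2 difference between the populations was 3.18 ± 0.23 in CKO (9.03-fold, edgeR adjusted p = 7.5e-11) and 1.15 ± 0.22 in control (adjusted p = 9.2e-04). It was larger in CKO by 2.02 ± 0.31 (interaction, adjusted p = 0.0036), and by 1.69 without libraries 1. DESeq2 with the block gave an adjusted p of 0.25 for this interaction, and it passed under the other blocked alternatives.

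Cst3 (ENSMUSG00000027447, chr2:148871722-148875692, minus strand), which encodes the secreted cysteine protease inhibitor cystatin C, stood at 29936, 31694 and 35238 CPM in CKO gpSSPCs and at 7538, 8346 and 8262 CPM in CKO pSSPCs. The control values were 14434, 22406 and 23792 CPM in gpSSPCs and 10447, 10304 and 10018 CPM in pSSPCs. As with Serpina1d, the CKO gpSSPC libraries were the highest, and the CKO pSSPC libraries lay below the control pSSPC libraries. Its log2 difference was 2.01 ± 0.15 in CKO and 0.82 ± 0.15 in control, larger in CKO by 1.20 ± 0.21 (edgeR interaction, adjusted p = 0.019) and by 0.82 without libraries 1. The interaction of Cst3 missed the threshold with other size factors (RLE, adjusted p = 0.069), with DESeq2 (0.62), with each library as a sample (0.068), with counts thinned to equal totals (0.084) and without replicate 2 (0.12). Summed markers of myeloid cells and of basophils and mast cells were also higher in CKO than in control gpSSPC libraries 2 and 3, at 179 and 193 against 79.2 and 74.4 CPM and at 121 and 145 against 30.8 and 23.3 CPM. In libraries 1 the basophil and mast cell sums were 0.571 CPM in CKO and 0.856 CPM in control gpSSPCs and the myeloid sums 53.1 and 32.5 CPM. The part of these cells in the widened differences was not tested.

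The other Serpina1 copies were also higher in CKO gpSSPCs. Serpina1a stood at 1689, 3447 and 4074 CPM in CKO gpSSPCs, 257, 446 and 412 CPM in CKO pSSPCs, 598, 1479 and 1645 CPM in control gpSSPCs and 305, 532 and 487 CPM in control pSSPCs. Its log2 difference was 2.94 ± 0.24 in CKO and 1.29 ± 0.23 in control, and the interaction of 1.65 ± 0.32 missed the threshold (edgeR adjusted p = 0.058), which it passed without replicate 3 (0.041), without a count filter (6.5e-05) and with each library as a sample (0.044). Serpina1c stood at 123, 229 and 232 CPM in CKO gpSSPCs and 21.7, 28.2 and 29.3 CPM in CKO pSSPCs, a log2 difference of 2.76 ± 0.54 against 0.24 ± 0.53 in control. The differences of Serpina1b and Serpina1e in CKO were 2.29 ± 0.36 and 2.80 ± 0.52, against 1.77 ± 0.35 and 1.46 ± 0.53 in control, and that of Serpina1b was 2.97 without libraries 1. All 5 copies passed the test in CKO, and for each the CKO difference was the larger, without a significant interaction for 4 of them. The copies share sequence: of the 50-base stretches of 1 transcript of each, 60% (Serpina1a), 34.2% (Serpina1b), 73.3% (Serpina1c), 48% (Serpina1d) and 35.6% (Serpina1e) occur in another copy, so the split of counts between them is uncertain.

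**Figure D2:**
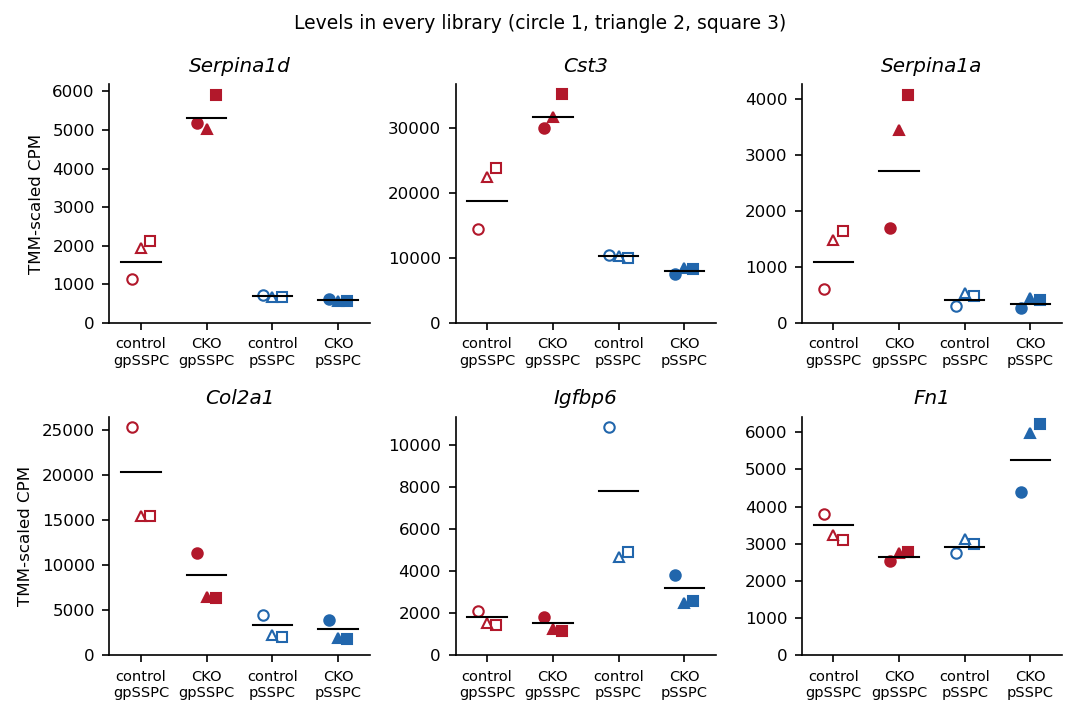
TMM-scaled CPM on a linear axis for Serpina1d, Cst3, Serpina1a, Col2a1, Igfbp6 and Fn1 in the 4 groups, gpSSPCs in red and pSSPCs in blue. Filled markers are CKO and open markers are control libraries, with a circle for library 1, a triangle for library 2 and a square for library 3. A black line lies at the mean of library 1 and the mean of libraries 2 and 3. Serpina1d, Cst3 and Serpina1a are highest in CKO gpSSPCs, Col2a1 is highest in control gpSSPCs and Igfbp6 is highest in control pSSPCs.

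Fn1 and Smoc2 had opposite signs in CKO and control and missed the interaction threshold. Fn1, which encodes the matrix glycoprotein fibronectin, stood at 2534, 2751 and 2779 CPM in CKO gpSSPCs and 4398, 5967 and 6233 CPM in CKO pSSPCs. The control values were 3812, 3225 and 3108 CPM in gpSSPCs and 2748, 3133 and 2986 CPM in pSSPCs. CKO pSSPC libraries were the highest of all 12 and the remaining groups lay close together. The log2 difference of Fn1 was -0.98 ± 0.18 in CKO (edgeR adjusted p = 0.0011, 0.10 with DESeq2) and 0.25 ± 0.18 in control, with an interaction of -1.23 ± 0.26 (adjusted p = 0.14). For Smoc2, a secreted calcium-binding matrix protein, the log2 difference was 0.67 ± 0.28 in CKO and -0.98 ± 0.28 in control (interaction adjusted p = 0.40). With each library as a sample the interactions of Fn1 and Smoc2 passed (adjusted p = 0.0497 and 0.0094), and without a count filter that of Fn1 did (1.3e-05).

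Among the differences that were smaller in CKO, that of Col2a1 had the smallest interaction p. Col2a1 (ENSMUSG00000022483, chr15:97975602-98004695, minus strand), which encodes the chain of type II collagen, stood at 11364, 6425 and 6301 CPM in CKO gpSSPCs and 3888, 1885 and 1808 CPM in CKO pSSPCs. In control cells it stood at 25294, 15459 and 15459 CPM in gpSSPCs and 4426, 2268 and 2014 CPM in pSSPCs. Within each library number the CKO gpSSPC value was less than the control gpSSPC value, whereas the pSSPC values of the genotypes lay closer together. The log2 difference was 1.67 ± 0.15 in CKO and 2.67 ± 0.16 in control, with an interaction of -1.0 ± 0.21 (edgeR, unadjusted p = 5.4e-05, adjusted p = 0.14). Without a filter on low counts the interaction of Col2a1 had an adjusted p of 1.8e-06, and with each library as a sample 0.031.

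The other genes with narrowed values had differences toward pSSPCs, apart from Cpox. In CKO, Gstm1 and Cpox did not pass the test (edgeR adjusted p = 0.20 and 0.91). Igfbp6, which encodes an insulin-like growth factor binding protein found in connective tissue fibroblasts, stood at 1809, 1229 and 1168 CPM in CKO gpSSPCs and 3833, 2499.7 and 2589 CPM in CKO pSSPCs. Its control values were 2078, 1544 and 1454 CPM and 10874, 4669 and 4926 CPM. Its log2 difference was -1.09 ± 0.19 in CKO and -2.08 ± 0.19 in control (interaction adjusted p = 0.56), and the interaction of 1.00 ± 0.26 was 0.59 without libraries 1. CKO pSSPC levels of Igfbp6 thus lay between the gpSSPC levels and the control pSSPC levels in each library number.
Apod, the lipid carrier apolipoprotein D, stood at 594, 994 and 989 CPM in CKO gpSSPCs, 971, 1663 and 1836 CPM in CKO pSSPCs, 569, 1046 and 1043 CPM in control gpSSPCs and 2002, 3534 and 3955 CPM in control pSSPCs. Here too the gpSSPC libraries of the genotypes lay close together and the control pSSPC libraries were the highest, and the log2 difference was -0.77 ± 0.20 in CKO and -1.86 ± 0.21 in control (interaction adjusted p = 0.56). For Gstm1, a glutathione transferase, the log2 difference was -0.75 ± 0.27 in CKO and -2.48 ± 0.28 in control (interaction adjusted p = 0.24), with 175, 859.5 and 949 CPM in CKO and 482, 1682 and 1796 CPM in control pSSPCs. Without libraries 1 the CKO difference of Gstm1 was -1.21, and its interaction was 0.92 in place of 1.73 ± 0.39. Cpox, an enzyme of heme synthesis, had a log2 difference of 0.33 ± 0.67 in CKO and 4.43 ± 0.84 in control (interaction adjusted p = 0.56), and its CKO pSSPC values of 6.71, 119 and 76.4 CPM spanned a wide range. The control difference of Cpox was 3.46 without libraries 1. Without a count filter the interactions of Gstm1, Cpox and Igfbp6 passed (adjusted p = 0.0047, 0.0072 and 0.0057), and that of Apod passed with each library as a sample (0.017). In CKO cells, the call of Apod was lost with RLE size factors, DESeq2, thinned counts and without replicate 3 (adjusted p = 0.071, 0.22, 0.075 and 0.051), and that of Igfbp6 with DESeq2 (0.072).

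The 10 largest differences toward CKO gpSSPCs, among called genes with at least 20 CPM in every gpSSPC library and no overlap, were held by Mall, Baiap2l1, Epyc, Clec3a, Fxyd3, Efcab1, Bmp8a, Serpina1d, Prkcz and Fam89a. Their difference in CKO chose them, so their values are a description. Mall, which encodes a membrane raft protein of the MAL family, stood at 48.5, 146 and 135 CPM in CKO gpSSPC libraries 1, 2 and 3 and at 1.55, 8.03 and 8.47 CPM in CKO pSSPC libraries. The gap exceeded 10-fold in every library number, the log2 difference was 4.43 ± 0.69 (21.5-fold, edgeR adjusted p = 9.1e-05), and in control it was 3.07 ± 0.65.
Epyc, which encodes epiphycan, a small leucine-rich proteoglycan of cartilage, stood at 54.2, 117 and 115 CPM in CKO gpSSPCs and 4.13, 7.47 and 8.47 CPM in CKO pSSPCs. Clec3a, a lectin of cartilage matrix, stood at 30.8, 113 and 116 CPM and 2.06, 8.03 and 11.5 CPM. Both were lower in library 1 of either population and were separated by the population in every library number, with log2 differences of 3.78 ± 0.62 and 3.61 ± 0.70 in CKO and 3.35 ± 0.60 and 3.61 ± 0.71 in control.
Fxyd3, which encodes a regulator of the sodium pump, stood at 151, 138 and 163 CPM in CKO gpSSPCs and 15, 12.5 and 12.9 CPM in CKO pSSPCs, with nearly equal values across the libraries of a population. Its log2 difference was 3.47 ± 0.49 in CKO and 2.76 ± 0.48 in control.
Baiap2l1, which encodes a protein that links membrane curvature to actin, stood at 86.2, 36.8 and 32.8 CPM and 4.13, 1.11 and 2.65 CPM, and Efcab1, an EF-hand protein, stood at 87.4, 66.5 and 67.4 CPM and 6.71, 8.58 and 7.41 CPM. These differences, 4.34 ± 1.00 and 3.35 ± 0.70 in CKO, were 1.91 ± 0.92 and 1.70 ± 0.66 in control, where neither passed the test.
For Bmp8a, a BMP ligand, Prkcz, an atypical protein kinase C, and Fam89a, the log2 differences in CKO were 3.27 ± 0.77, 3.17 ± 0.83 and 2.96 ± 0.48. All 10 had the same sign in control, 7 of them passed the test there, and 4 were smaller in CKO without libraries 1 than with them.

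The 10 largest differences toward CKO pSSPCs were held by Edn1, Pla1a, Col15a1, Filip1l, Ccl8, Pdlim1, Ifi203, Rgs5, Cxcl13 and Sned1. Edn1, which encodes the vasoconstrictor peptide endothelin-1, stood at 13.1, 9.9 and 7.14 CPM in CKO gpSSPC libraries 1, 2 and 3 and at 600.3, 24.4 and 26.7 CPM in CKO pSSPC libraries. Its pSSPC library 1 lay far above libraries 2 and 3, and the log2 difference of -4.33 ± 0.80 was -1.57 without libraries 1. With each library as a sample, Edn1 had an adjusted p of 0.059. All 10 genes were smaller in CKO without libraries 1, so the value with that library set aside is given for each.
Pla1a, which encodes a phospholipase acting on phosphatidylserine, stood at 13.7, 90.7 and 85.6 CPM in CKO gpSSPCs and 199.8, 326 and 358 CPM in CKO pSSPCs, and library 1 of the gpSSPCs was the lowest. The log2 difference was -3.01 ± 0.48 (without libraries 1, -1.93) in CKO and -0.88 ± 0.45 in control.
Col15a1, which encodes a collagen next to basement membranes, stood at 4, 29.3 and 19 CPM and 55.2, 76.1 and 71.8 CPM. The values did not overlap, and the log2 difference was -2.95 ± 0.81 (without libraries 1, -1.62; adjusted p = 0.055 with thinned counts) in CKO and -0.04 ± 0.75 in control.
Filip1l, a filamin A-interacting protein, stood at 9.71, 36.4 and 32 CPM and 127, 169 and 177 CPM, with a log2 difference of -2.88 ± 0.50 (without libraries 1, -2.31) in CKO and -2.60 ± 0.49 in control. Cxcl13, a chemokine that attracts B cells, stood at 49.1, 26.5 and 26.4 CPM and 424, 85.2 and 94.4 CPM, again with pSSPC library 1 far above the others, and its log2 difference was -2.56 ± 0.43 (without libraries 1, -1.73) in CKO and -2.46 ± 0.42 in control. Filip1l and Cxcl13 were the 2 of these 10 that also passed the test in control. All 10 had the same sign there, but the control difference of Col15a1 was smaller than its SE. A shared sign alone thus does not show that a difference was present in control.
Ccl8, a chemokine for monocytes, stood at 11.4, 13.1 and 13.2 CPM in CKO gpSSPCs and 107, 53.1 and 58.4 CPM in CKO pSSPCs. The gpSSPC libraries were alike and all pSSPC libraries lay above them, with a log2 difference of -2.84 ± 0.74 (without libraries 1, -2.04; adjusted p = 0.051 with thinned counts).
Rgs5, a regulator of G protein signalling known from pericytes, stood at 11.4, 38 and 36.7 CPM and 102, 145 and 147 CPM, with a log2 difference of -2.61 ± 0.58 (without libraries 1, -1.92). The differences of Pdlim1, an actin-associated PDZ and LIM domain protein, Ifi203, an interferon-inducible protein, and Sned1, a matrix protein, were -2.83 ± 0.65, -2.78 ± 0.72 and -2.56 ± 0.52, and -2.03, -1.72 and -1.93 without libraries 1.

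**Figure D3:**
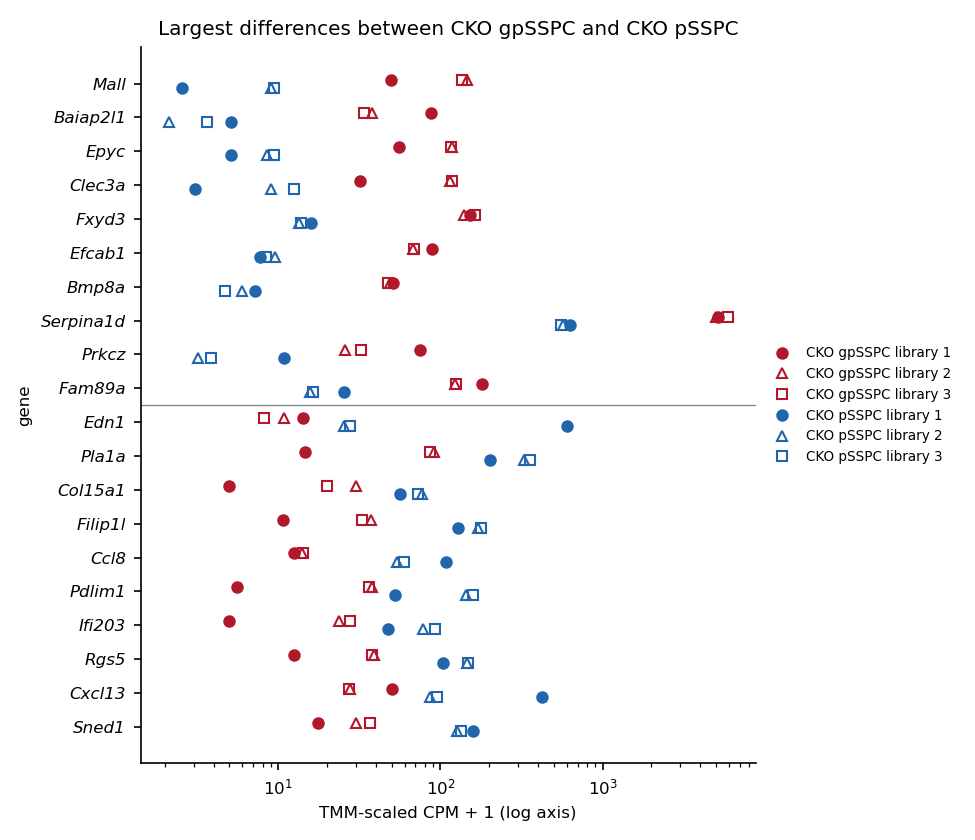
TMM-scaled CPM plus 1 (log axis) of the 20 genes with the largest differences between the CKO populations, in each of the 3 CKO gpSSPC libraries (red) and 3 CKO pSSPC libraries (blue), with filled circles for library 1, open triangles for library 2 and open squares for library 3. No gene shows overlap, as the choice of genes required, and in Edn1 and Cxcl13 library 1 of the pSSPCs lies far above libraries 2 and 3.

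Cartilage matrix genes that passed the test were higher in CKO gpSSPCs. Of 21 listed genes, 18 passed the test toward gpSSPCs and 0 toward pSSPCs, as in control, where the counts were also 18 and 0. For this and the later lists, the shares over all tested genes were 1.25% toward gpSSPCs and 1.11% toward pSSPCs in CKO. In control they were 1.24% and 2.37%. The median log2 difference of the list was 1.67 in CKO and 2.06 in control, against -0.02 and 0.04 over all tested genes, and 10 of 21 were smaller in CKO. Without libraries 1 these medians were 1.92 and 2.36. Acan, which encodes aggrecan, stood at 2787, 2865 and 2686 CPM in CKO gpSSPCs and 405, 354 and 345 CPM in CKO pSSPCs, and the log2 difference was 2.88 ± 0.22 in CKO and 3.02 ± 0.23 in control.
Chad, which encodes the cartilage matrix protein chondroadherin, stood at 25651, 12011 and 12151 CPM and 3871, 1787 and 1728 CPM, with 2.76 ± 0.18 in CKO and 1.98 ± 0.17 in control. Cytl1, a cytokine-like secreted protein of cartilage, stood at 8271, 27216 and 29565 CPM and 1575, 5870.1 and 5547 CPM, with log2 differences of 2.37 ± 0.19 in CKO and 1.33 ± 0.18 in control. For these 2 genes the CKO difference was the larger, whereas it was the smaller for the collagen chains. Col9a1, a chain of type IX collagen, stood at 823, 535 and 555 CPM in CKO gpSSPCs and 407, 241 and 212 CPM in CKO pSSPCs, and at 1888, 1623 and 1570.2 CPM and 459, 263 and 261 CPM in the control populations. Its log2 difference was 1.16 ± 0.24 in CKO and 2.31 ± 0.25 in control (interaction unadjusted p = 0.0017, adjusted p = 0.71). All 6 chains of type II, IX and XI collagen on the list (Col2a1, Col9a1, Col9a2, Col9a3, Col11a1 and Col11a2) had a smaller difference in CKO, 5 of them at an unadjusted interaction p below 0.05 and 0 at an adjusted one; this group was singled out after its values were seen. Cnmd, which encodes the angiogenesis inhibitor chondromodulin, and Snorc, a cartilage proteoglycan, differed by 2.41 ± 0.18 and 2.09 ± 0.17 in CKO and by 2.26 ± 0.18 and 1.94 ± 0.17 in control. Matn1, Matn4 and Cilp2 did not pass the test in CKO, with log2 differences of 1.27 ± 0.91, -0.82 ± 0.71 and 1.86 ± 0.61. For this list, the median pSSPC level was 34.2%, 28.4% and 26.4% of the gpSSPC level in CKO library numbers 1, 2 and 3, and 29%, 21.3% and 19.3% in control, so cartilage transcripts were counted in the periosteal libraries of both genotypes.

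Chondrogenic regulators that passed the test were also higher in CKO gpSSPCs. Of 17 tested, 9 passed the test toward gpSSPCs and 0 toward pSSPCs in CKO, against 10 and 0 in control, with median log2 differences of 1.66 and 1.86. Sox9, the master transcription factor of cartilage, stood at 1456, 1103 and 1039 CPM in CKO gpSSPCs and 627, 258 and 248 CPM in CKO pSSPCs. Every gpSSPC library lay above every pSSPC library, and the log2 difference was 1.66 ± 0.25 in CKO and 1.58 ± 0.24 in control. Sox6, its partner, differed by 2.48 ± 0.62 in CKO and 2.79 ± 0.63 in control, and Sox5 by 0.90 ± 0.39 in CKO, where it did not pass (adjusted p = 0.34, 0.0032 with each library as a sample). Pth1r, the receptor for parathyroid hormone-related protein, stood at 1186, 672 and 671 CPM in CKO gpSSPCs and 278, 182 and 175 CPM in CKO pSSPCs, with log2 differences of 2.02 ± 0.24 in CKO and 2.64 ± 0.25 in control. Ihh, the hedgehog ligand of prehypertrophic chondrocytes, stood at 42.8, 185 and 191 CPM and 18.6, 44 and 38.5 CPM, with 1.76 ± 0.46 in CKO and 2.33 ± 0.47 in control. Pth1r and Ihh were each higher in gpSSPCs in every library number. Fgfr3, a receptor that restrains chondrocyte growth, Wwp2, a ubiquitin ligase acting with SOX9, and Runx3 differed by 2.17 ± 0.51, 1.84 ± 0.28 and 1.89 ± 0.50 in CKO (Runx3 without libraries 1, 2.75).

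Genes of growth plate zones and of osteoblasts that passed the test were also higher in CKO gpSSPCs. Of 14 zone genes, 9 passed toward gpSSPCs and 0 toward pSSPCs in CKO, against 8 and 1 in control, with medians of 1.86 and 1.47. Of 13 osteoblast genes, 6 and 0 passed in CKO and 5 and 0 in control, with medians of 1.82 and 1.74 (1.98 and 2.23 without libraries 1, which turns the order of the genotypes). Ibsp, which encodes the mineral-binding bone sialoprotein, stood at 37989, 7288 and 8796 CPM in CKO gpSSPCs and 6978, 1168 and 1130.4 CPM in CKO pSSPCs. Library 1 was the highest in both populations, and the log2 difference was 2.65 ± 0.14 in CKO and 2.65 ± 0.14 in control. Col10a1, the collagen of hypertrophic chondrocytes, stood at 243, 278 and 268 CPM in CKO gpSSPCs and 193, 106 and 106 CPM in CKO pSSPCs, and at 1037, 648 and 687 CPM and 209, 129 and 109.9 CPM in control. The control gpSSPC libraries were the highest, the log2 difference was 0.89 ± 0.29 in CKO (edgeR adjusted p = 0.14) and 2.38 ± 0.30 in control, and the interaction missed the threshold (unadjusted p = 0.0011, adjusted p = 0.59). Without libraries 1 the differences of Col10a1 were 1.39 in CKO and 2.56 in control. With each library as a sample, Col10a1 passed in CKO (adjusted p = 0.0095). Mmp13, a collagenase of terminal chondrocytes, Panx3, a channel protein of chondrocytes and osteoblasts, and Spp1, which encodes osteopontin, differed by 1.81 ± 0.35, 2.35 ± 0.32 and 1.84 ± 0.24 in CKO, and Mmp13 and Spp1 by 2.66 and 2.43 without libraries 1. Alpl, the phosphatase of mineralization, differed by 1.89 ± 0.27 in CKO and 2.61 ± 0.27 in control, Bglap, which encodes osteocalcin, by 2.48 ± 0.24 and 1.95 ± 0.24, and Dlx5, a homeobox factor of osteoblasts, by 1.82 ± 0.48 in CKO. Wif1, a secreted Wnt inhibitor of the resting zone, stood at 239, 983 and 979 CPM in CKO gpSSPCs and 93.4, 144 and 138 CPM in CKO pSSPCs, and at 125, 486 and 503 CPM and 146, 178 and 171 CPM in control. Its gpSSPC libraries were higher in CKO than in control within each number, with log2 differences of 2.12 ± 0.37 (without libraries 1, 2.85) in CKO and 0.62 ± 0.36 in control and an interaction that missed the threshold (adjusted p = 0.94). Sfrp5, another secreted Wnt inhibitor, differed by 2.72 ± 0.72 in CKO.

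Fibrous matrix genes were higher in CKO pSSPCs where they passed the test. Of 27 genes, 9 passed toward pSSPCs and 0 toward gpSSPCs in CKO, against 12 and 2 in control, with median log2 differences of -0.86 and -0.57. Without libraries 1 the order of the genotypes turned, with medians of -0.70 and -0.77. Dcn, which encodes the collagen-binding proteoglycan decorin, stood at 3407, 6533 and 7029 CPM in CKO gpSSPCs and 6834, 10784 and 11852 CPM in CKO pSSPCs, and at 4676, 5992 and 6177 CPM and 13508, 17750.4 and 20173 CPM in control. The control pSSPC libraries were the highest within each number, and the log2 difference was -0.86 ± 0.16 in CKO (adjusted p = 7.3e-04, 0.18 with DESeq2) and -1.62 ± 0.16 in control. Fbn1, the microfibril protein fibrillin-1, stood at 52.5, 69.3 and 67.1 CPM in CKO gpSSPCs and 408, 227 and 267 CPM in CKO pSSPCs, with -2.43 ± 0.36 in CKO and -1.60 ± 0.35 in control. Col3a1, Col14a1 and Mfap5, genes of fibrillar collagen, a fibril-associated collagen and a microfibril protein, differed by -1.26 ± 0.21, -2.12 ± 0.35 and -1.87 ± 0.23 in CKO. Ogn, which encodes osteoglycin, had a log2 difference of -0.49 ± 0.30 in CKO (without libraries 1, -0.14), which did not pass (adjusted p = 0.57), and -1.63 ± 0.31 in control. Col1a1, the main collagen of bone and fibrous tissue, had a positive difference of 0.56 ± 0.19 in CKO (adjusted p = 0.15, 0.0023 without a count filter and 0.025 with CKO libraries alone) and 0.83 ± 0.19 in control, where it passed.

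Genes known from periosteal and fibroblast progenitors were likewise higher in pSSPCs where they passed. Of 24 tested, 11 passed toward pSSPCs and 0 toward gpSSPCs in CKO and 16 and 0 in control. The median log2 difference was -1.26 in CKO and -2.01 in control, and -1.06 and -1.67 without libraries 1, 16 of the 24 were smaller in CKO, and 0 passed the adjusted interaction test by edgeR or by DESeq2, against 8 at an unadjusted p below 0.05. Gsn, which encodes the actin-severing protein gelsolin, stood at 7271, 7945 and 7622 CPM in CKO gpSSPCs and 22733, 12665 and 12457 CPM in CKO pSSPCs, and at 7570.1, 8054 and 7572 CPM and 43810.1, 23678 and 23893 CPM in control. GpSSPC levels were alike in both genotypes, and the log2 difference was -1.16 ± 0.18 in CKO (without libraries 1, -0.65; adjusted p = 0.083 with DESeq2) and -2.11 ± 0.18 in control. Myoc, which encodes the secreted protein myocilin, stood at 190.2, 509 and 510.2 CPM in CKO gpSSPCs and 578, 1081 and 1116 CPM in CKO pSSPCs, and at 225, 618 and 616 CPM and 1443, 2570.0 and 2777 CPM in control. In each library number the control pSSPC value was the highest, with log2 differences of -1.35 ± 0.23 in CKO and -2.43 ± 0.24 in control. Cd34, a surface glycoprotein of fibroblast and vascular progenitors, stood at 114, 155 and 158 CPM in CKO gpSSPCs and 517, 430.3 and 432 CPM in CKO pSSPCs, with -1.82 ± 0.29 in CKO and -2.24 ± 0.29 in control. Pi16, a marker of adventitial fibroblasts, differed by -1.26 ± 0.31 in CKO (adjusted p = 0.055 with DESeq2) and -2.01 ± 0.32 in control. Ly6c1, which lies in the gene family of Sca1, differed by -1.74 ± 0.22 in CKO. The alarmin Il33 and the chemokine Ccl11 differed by -2.26 ± 0.49 and -2.05 ± 0.36 (Ccl11 without libraries 1, -1.34). Thy1, which encodes CD90, differed by -2.50 ± 0.63 and by -1.0 without libraries 1. Inmt, a methyltransferase, had -1.40 ± 0.46 in CKO, which did not pass (adjusted p = 0.14, 0.037 with each library as a sample), and -3.47 ± 0.48 in control (without libraries 1, -2.61). Prg4, which encodes lubricin, stood at 1489, 22058 and 25879 CPM in CKO gpSSPCs and 7337, 25619 and 29882 CPM in CKO pSSPCs. It was far lower in gpSSPC library 1 than in the other CKO libraries, so its difference of -1.24 ± 0.31 was -0.17 without libraries 1, and it lost its call with DESeq2 (adjusted p = 0.20) and with each library as a sample (0.24). For this list, the median gpSSPC level was 35.4%, 47.7% and 45.4% of the pSSPC level in CKO library numbers 1, 2 and 3, and 23.1%, 32.2% and 29.5% in control.

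Transcription factors of connective tissue that passed the test in CKO were higher in pSSPCs. Of 21 tested, 3 passed toward pSSPCs in CKO and 9 in control, with 0 toward gpSSPCs in either, against 1.11% of all tested genes called toward pSSPCs in CKO. In CKO 12 had an unadjusted p below 0.05 and 19 lay below 0, with medians of -1.24 in CKO and -1.28 in control (-1.08 and -0.94 without libraries 1). The 3 were Osr1, Ebf1 and Zeb2. Osr1, a factor of limb connective tissue, stood at 37.7, 32.5 and 37 CPM in CKO gpSSPCs and 278, 144 and 169 CPM in CKO pSSPCs. Ebf1, a factor of mesenchymal stroma and B cells, stood at 262, 91.1 and 96.8 CPM and 1534, 366 and 409 CPM. Both were without overlap and highest in pSSPC library 1, with log2 differences of -2.52 ± 0.39 and -2.32 ± 0.29 in CKO and -2.79 ± 0.39 and -3.24 ± 0.30 in control (Ebf1 without libraries 1, -2.64). Zeb2 differed by -1.85 ± 0.50 (adjusted p = 0.044) and lost its call with RLE size factors, with thinned counts and without replicate 3. Prrx1, whose regulatory sequence drives the Cre, differed by -1.07 ± 0.37 in CKO, which did not pass (adjusted p = 0.17), and by -2.80 ± 0.39 in control (without libraries 1, -1.75).

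**Figure D4:**
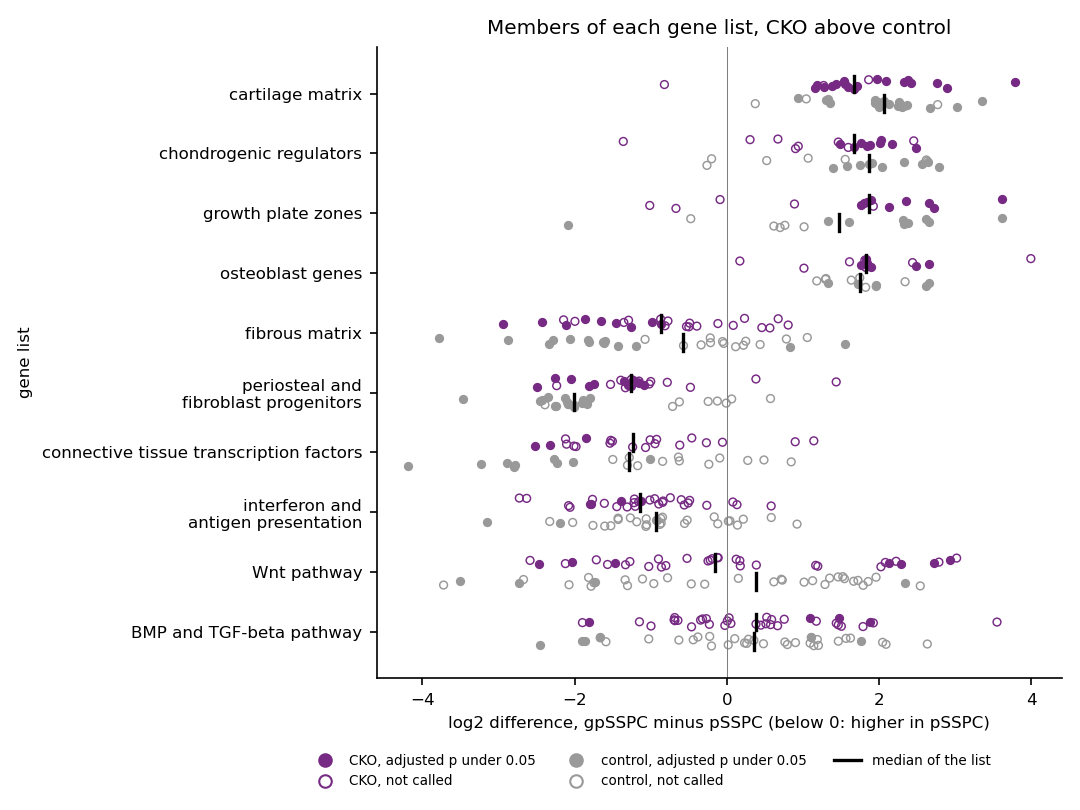
Log2 difference between gpSSPCs and pSSPCs for the members of 10 gene lists in CKO cells (purple, upper row of each list) and in control cells (grey, lower row), with filled points for an adjusted p below 0.05 and a black bar at the list's median. The medians of cartilage, regulator, zone and osteoblast genes lie above 0 and that of progenitor genes below 0 in both genotypes, and the progenitor median is closer to 0 in CKO (-1.26) than in control (-2.01).

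Over all 13173 tested genes, 1.25% passed toward gpSSPCs and 1.11% toward pSSPCs in CKO, and 1.24% and 2.37% in control. DESeq2 called 511 of all tested genes in CKO. In the Wnt pathway, 4 of 34 genes passed toward gpSSPCs and 3 toward pSSPCs in CKO, against 1 and 3 in control, with medians of -0.16 and 0.38, and DESeq2 called 13 in CKO. Without libraries 1 both medians changed sign, to 0.12 and -0.26. Toward gpSSPCs were the inhibitors Wif1 and Sfrp5, the receptor gene Fzd9 with 2.93 ± 0.47 and the Wnt-enhancing ligand Rspo3 with 2.28 ± 0.60 (adjusted p = 0.051 with thinned counts). Toward pSSPCs were the secreted inhibitors Sfrp1, Sfrp4 and Dkk2, with -2.47 ± 0.56, -1.47 ± 0.24 and -2.03 ± 0.56. The secreted Wnt inhibitors that passed thus lay on both sides. Wif1 was counted in both populations, and no test of the inhibitors as a group was made.
In the BMP and TGF-beta pathway, 3 of 35 passed toward gpSSPCs and 1 toward pSSPCs in CKO, against 2 and 4 in control, with medians of 0.38 and 0.35 (0.31 and 0.47 without libraries 1). These were the BMP antagonist Chrdl1 with 1.88 ± 0.41, the BMP target genes Id1 with 1.47 ± 0.37 and Id2 with 1.08 ± 0.27 (adjusted p = 0.078 with DESeq2), and, toward pSSPCs, the secreted glycoprotein gene Fstl1 with -1.81 ± 0.24. The ligand gene Bmp4 had -1.0 ± 0.55 in CKO (adjusted p = 0.52) and -2.45 ± 0.57 in control.
Shares of all tested genes toward gpSSPCs and pSSPCs were 1.25% and 1.11% in CKO and 1.24% and 2.37% in control. In the FGF and hedgehog pathways, 2 of 26 passed toward gpSSPCs and 0 toward pSSPCs in CKO, against 2 and 2 in control, with medians of 0.09 and 0.01 (0.15 and 0.03 without libraries 1), and DESeq2 called 5 in CKO. Those in CKO were Fgfr3 and Ihh, described above, and the ligand gene Fgf18 had -1.01 ± 0.43 in CKO (adjusted p = 0.33, 0.0089 with each library as a sample) and -2.09 ± 0.44 in control. Among integrins and mechanosensors, 4 of 28 passed toward gpSSPCs and 0 toward pSSPCs in CKO, against 5 and 0 in control, with medians of -0.23 and 0.14 (-0.11 and 0.13 without libraries 1). They were Itga10, the collagen-binding integrin subunit of chondrocytes, with 2.34 ± 0.62, the ion channel gene Trpv4 with 1.92 ± 0.40, the YAP target Ccn1 with 1.36 ± 0.23 and the heparan sulfate proteoglycan gene Sdc4 with 1.37 ± 0.17. Of 8 tendon genes, 1 passed toward gpSSPCs in each genotype, and in CKO it was Fmod, which encodes fibromodulin, with 1.54 ± 0.25.

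Beside the lists that follow, 1.25% of all tested genes passed toward gpSSPCs and 1.11% toward pSSPCs in CKO, and 1.24% and 2.37% in control. Interferon and antigen presentation genes that passed were higher in CKO pSSPCs. Of 30 tested, 4 passed toward pSSPCs and 0 toward gpSSPCs, as many as in control, with medians of -1.14 in CKO and -0.93 in control (-0.91 and -0.99 without libraries 1, which turns their order). They were Ifitm3, a membrane protein that restricts viral entry, with -1.81 ± 0.20, B2m, the invariant chain of MHC class I, with -1.39 ± 0.25 (without libraries 1, -0.88), the MHC class I gene H2-D1 with -1.12 ± 0.24 (adjusted p = 0.069 with DESeq2), and Bst2, which encodes tetherin, with -1.78 ± 0.49. Bst2 was -1.10 without libraries 1, and lost its call with RLE size factors, with DESeq2, with each library as a sample and with thinned counts.
Among hypoxia and glycolysis genes, 3 of 24 passed toward gpSSPCs and 0 toward pSSPCs in CKO, against 1 and 0 in control, with medians of 0.67 and 0.45, and DESeq2 called 6 in CKO. These were the glycolytic enzyme genes Pfkl with 2.66 ± 0.52, Eno1 with 1.24 ± 0.26 and Hk2 with 1.46 ± 0.40 (without libraries 1, 0.96; adjusted p = 0.051 with RLE size factors and 0.055 with DESeq2).
Of 20 immediate early and dissociation stress genes, 5 passed toward gpSSPCs and 0 toward pSSPCs in CKO, against 3 and 0 in control, with medians of 0.29 and 0.26 (0.44 and 0.40 without libraries 1), and DESeq2 called 2 in CKO. They were Junb, Ier2, Ier3, Btg2 and the chaperone gene Dnajb1, with 0.71 ± 0.18, 0.95 ± 0.20, 1.16 ± 0.32, 1.76 ± 0.23 and 1.90 ± 0.26. Junb, Ier2 and Ier3 lost their calls with DESeq2 (adjusted p = 0.30, 0.11 and 0.098), and Junb and Ier3 also with RLE size factors (0.058 and 0.053). The growth plate and periosteum were digested differently, and the part of this in these values was not tested.
Toward gpSSPCs and pSSPCs, 1.25% and 1.11% of all tested genes passed in CKO and 1.24% and 2.37% in control. Of 27 p53 targets and cell cycle arrest genes, 2 passed toward gpSSPCs and 0 toward pSSPCs in CKO, against 2 and 1 in control, with medians of -0.08 and 0.28 (-0.23 and 0.44 without libraries 1). Btg2, described above, was among those in CKO. Cdkn1a, which encodes the cell cycle inhibitor p21, stood at 1189, 1261 and 1277 CPM in CKO gpSSPCs and 1199.5, 1425 and 1465 CPM in CKO pSSPCs, a log2 difference of -0.11 ± 0.23 (adjusted p = 0.92), with no value lying far from the rest.
Of 16 nuclear envelope genes, 0 passed in either direction in either genotype by edgeR with the block, with medians of 0.48 and -0.26, and in CKO 1 had an unadjusted p below 0.05 and DESeq2 called 0. Without libraries 1 both medians lay close to 0, at -0.006 and -0.033. Lmna, which encodes prelamin A and lamin C, stood at 645, 1133 and 1125 CPM in CKO gpSSPCs and 1007, 1380.3 and 1406 CPM in CKO pSSPCs, and the log2 difference of -0.47 ± 0.22 (without libraries 1, -0.27) did not pass (adjusted p = 0.41, 0.024 with each library as a sample).

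Genes that the study itself named for its RNA-seq were chosen on these samples and are not independent evidence of a direction. Of 30 tested, 7 passed toward gpSSPCs and 4 toward pSSPCs in CKO, against 4 and 5 in control, with medians of -0.12 and 0.14. Toward gpSSPCs were the 5 Serpina1 copies, Wif1 and Col2a1. Toward pSSPCs were Prg4, Myoc, Fn1 and Aspn, which encodes the leucine-rich repeat protein asporin, with -1.46 ± 0.26.

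Markers of other cells were read beside these results, as summed CPM in CKO gpSSPC libraries 1, 2 and 3 and then in CKO pSSPC libraries 1, 2 and 3. Staining for CD31, CD45 and Ter119 was part of the sort of both populations. Erythroid genes summed to 17.7, 2805 and 2994 CPM in gpSSPCs and to 155, 1253 and 1225 CPM in pSSPCs, with Hbb-bs, a beta-globin gene, as the most abundant in libraries 2 and 3. They were thus abundant in libraries 2 and 3 and much lower in libraries 1, and 0 of 5 tested passed between the populations by edgeR or DESeq2, with 2 at an unadjusted p below 0.05. Basophil and mast cell genes summed to 0.571, 121 and 145 CPM in gpSSPCs and to 4.65, 23 and 19.4 CPM in pSSPCs, with Mcpt8 at 0 in libraries 1. Myeloid genes summed to 53.1, 179 and 193 CPM in gpSSPCs and 42.3, 50.9 and 50.7 CPM in pSSPCs, of which Cd14 made up most in gpSSPC libraries 2 and 3 (143 and 150.4 CPM). Of the defining genes, Adgre1 was at 0 in all 6 libraries. Ptprc, which encodes CD45, was at 0 in all pSSPC libraries and at 0, 2.38 and 7.93 CPM in gpSSPCs. Ptprc was thus counted only in gpSSPC libraries 2 and 3, where the myeloid and basophil sums were also highest. Of 6 myeloid and 3 basophil and mast cell genes tested, 0 passed by edgeR or DESeq2, with 4 and 0 at an unadjusted p below 0.05.
In control cells, in the same order, erythroid genes summed to 21, 6588 and 6716 CPM in gpSSPCs and to 23.6, 1862 and 1813 CPM in pSSPCs, myeloid genes to 32.5, 79.2 and 74.4 CPM and 98.6, 51.6 and 57 CPM, and basophil and mast cell genes to 0.856, 30.8 and 23.3 CPM and 2.44, 27.5 and 23.6 CPM. Erythroid sums of gpSSPC libraries 2 and 3 were thus lower in CKO than in control, and myeloid and basophil sums were higher. The interaction had a median log2 value of -2.09 over the erythroid, 2.59 over the myeloid and 2.46 over the basophil and mast cell genes tested, with 3, 2 and 0 genes at an unadjusted p below 0.05 and 0 called by edgeR or DESeq2.
Endothelial genes summed to 122, 73.7 and 75.3 CPM in gpSSPCs and to 153, 227 and 229 CPM in pSSPCs, with Plvap as the most abundant, and Pecam1, which encodes CD31, was at 4, 7.13 and 8.19 CPM and 0, 28.5 and 25.8 CPM. Pericyte genes summed to 146, 296 and 315 CPM in gpSSPCs, led by Cspg4, and to 168, 334 and 340 CPM in pSSPCs, led by Rgs5. Among the 6 tested pericyte genes, Rgs5 alone passed. Muscle genes summed to 30.8, 30.5 and 36 CPM in gpSSPCs and to 68.6, 78.6 and 82.8 CPM in pSSPCs, led by Mylpf in libraries 1, and 0 of 9 endothelial and 0 of 4 muscle genes passed by edgeR or DESeq2, with 1 of each at an unadjusted p below 0.05. Endothelial and muscle sums were thus higher in pSSPCs, in the direction of Edn1, Rgs5 and the interferon genes. The CD31 stain was used in the sort of pSSPCs too, and the part of these cells in those results was not tested.
Schwann cell genes summed to 552, 717 and 832 CPM in gpSSPCs and to 191, 213 and 234 CPM in pSSPCs, led by S100b, which chondrocytes also express, and Ncmap passed toward gpSSPCs with 2.95 ± 0.38. Sox10, a defining Schwann cell gene, was at 1.14, 0 and 0.793 CPM and 1.55, 0 and 0.353 CPM. Marrow stroma genes summed to 709.8, 607 and 607 CPM in gpSSPCs and to 806, 1104 and 1137 CPM in pSSPCs, led by the chemokine gene Cxcl12. Osteoclast genes summed to 71.4, 20.2 and 17.7 CPM in gpSSPCs and to 61.9, 62 and 62.1 CPM in pSSPCs. Neutrophil genes summed to 10.8, 21 and 29.1 CPM in gpSSPCs and 34.6, 7.75 and 6.18 CPM in pSSPCs, and lymphoid genes to 0, 7.52 and 8.99 CPM and 0, 18 and 12.7 CPM. In the marrow stroma, osteoclast, neutrophil and lymphoid lists 0 genes passed in CKO by edgeR, with 4, 1, 0 and 0 at an unadjusted p below 0.05 and 2, 1, 0 and 0 called by DESeq2, and the part of these cells in the results was not tested. In the remaining marker lists, the interaction called 0 genes by edgeR or DESeq2, with 1 endothelial, 1 Schwann cell, 1 marrow stroma and 1 osteoclast gene at an unadjusted p below 0.05. At 0 in all 6 CKO libraries were the muscle genes Myod1 and Pax7, the osteoclast genes Ocstamp, Dcstamp and Calcr, the neutrophil gene Elane and the lymphoid gene Cd3e. In each of the 6 libraries, 0 of 7 marrow stroma, 0 to 3 of 7 pericyte, 0 to 4 of 10 endothelial, 1 to 4 of 7 Schwann cell, 0 to 3 of 6 erythroid, 3 to 8 of 12 myeloid, 3 to 7 of 8 basophil and mast cell, 4 to 5 of 8 neutrophil, 4 to 7 of 10 muscle, 4 to 5 of 7 osteoclast and 7 to 9 of 9 lymphoid genes were at 0.

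ATAC-seq, which reads open chromatin through insertions of a transposase, gave a second readout of the CKO cells that was not used to choose genes. Peaks numbered 84100, 76856 and 68961 in the CKO gpSSPC libraries and 72375, 84042 and 101606 in the CKO pSSPC libraries, each called by the authors in its own library, from 12941435, 15154444 and 39801835 tags and from 17894469, 15115534 and 46756821 tags. A promoter, from 250 bases before to 50 bases after a RefSeq start site, could be matched for 9641 of the 13173 tested genes, and 87.8% of these had a peak in all 6 libraries. More gpSSPC than pSSPC libraries had a peak at 2.81% of promoters, and more pSSPC libraries at 4.37%. Of 117 matched genes with higher RNA in CKO gpSSPCs, 30 (25.6%) had a peak in more gpSSPC libraries and 4 (3.42%) in more pSSPC libraries. Of 103 matched genes with higher RNA in CKO pSSPCs, 28 (27.2%) had a peak in more pSSPC libraries and 2 (1.94%) in more gpSSPC libraries. A peak in all 6 libraries was found for 67.5% and 63.1% of these genes. Among genes called in both genotypes, the shares in the direction of the RNA were 28.4% and 33.8%. These shares are a description without a test, and a peak list gives presence above a threshold and not a level.

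**Figure D5:**
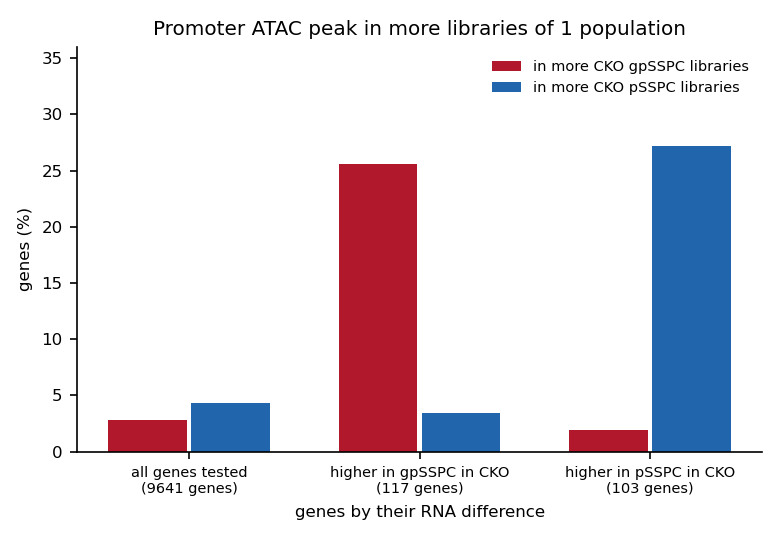
Percent of promoters with a peak in more CKO gpSSPC libraries (red) or in more CKO pSSPC libraries (blue), for all 9641 tested genes with a matched promoter, for 117 genes with higher RNA in CKO gpSSPCs and for 103 with higher RNA in CKO pSSPCs. Over all genes the bars are 2.81% and 4.37%, and among genes with higher RNA in a population the bar of that population is 25.6% or 27.2%.

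For single genes, the number of CKO gpSSPC and pSSPC libraries with a promoter peak was 3 and 0 for Chad, Cytl1, Serpina1a and Serpina1c and 2 and 0 for Serpina1b, Serpina1d and Fxyd3. Mall and Acan had 3 and 1. Toward pSSPCs, Edn1, Ccl8 and Ifi203 had 0 and 3, Rgs5 had 0 and 2 and Apod had 1 and 3. Of the 17 genes with a matched promoter among the largest differences in both directions, 7 had a peak in more libraries of the population with higher RNA. Another 8 of them had 3 and 3, namely Baiap2l1, Bmp8a, Prkcz, Fam89a, Col15a1, Filip1l, Pdlim1 and Sned1, as had Cst3, Gstm1 and Cpox. The value of Prkcz joins several start sites. Its window at chr4:155361379-155361678 had a peak in all 3 gpSSPC libraries and in no pSSPC library. Its other windows had a peak in every library and in pSSPC library 3 alone. Epyc, Cxcl13, Igfbp6 and Serpina1e had 0 and 0. The 120 bases that end just before the start of Chad and of Ccl8 are printed as a promoter with a peak in gpSSPCs alone and a promoter with a peak in pSSPCs alone, from RefSeq on GRCm38.p6, plus strand, at chr11:94564927-94565046 and chr11:82115065-82115184. Capitals mark the letters TATAAA, searched on both strands, which are in 13.6% of all 32851 promoter windows and 7.45% of those of tested genes.
Chad: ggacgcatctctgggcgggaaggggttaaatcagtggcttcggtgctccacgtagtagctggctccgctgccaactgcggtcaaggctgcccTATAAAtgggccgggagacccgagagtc
Ccl8: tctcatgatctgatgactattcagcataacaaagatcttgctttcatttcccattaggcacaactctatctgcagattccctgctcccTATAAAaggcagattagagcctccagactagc

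TATAAA was found in 15.2% of 164 windows of genes with higher RNA in CKO gpSSPCs and in 20.5% of 132 windows of genes with higher RNA in CKO pSSPCs. The letters TTTCNNTTTC, both strands, the core of interferon-stimulated response elements, were in 1.22% and 9.09% of these windows and in 3.06% of the windows of tested genes. ACAAT, both strands, the core bound by SOX factors, was in 18.9% and 23.5% of them and in 20% of the windows of tested genes. These matches describe the letters in a short window, and no test of a factor was made.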

How the data were processed

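Cells were sorted from 20-week-old mice and bulk libraries were prepared with a modified Smart-seq2 protocol with molecular identifiers. The authors aligned reads with STAR to mm10, counted them with HTSeq, removed duplicates by molecular identifier and deposited raw counts per gene (53801 genes) without normalization. Versions and annotation are not given in the sources used here. For ATAC-seq, the authors aligned with Bowtie2, filtered with Sambamba and used MACS2 (version 2.2.7.1) on each library alone, keeping peaks under a q-value of 0.05 without a control. Of the columns the authors deposited, the coordinates and the −log10 q-value were used. All count columns were mapped to samples, and 0 other columns of per-sample values were left out.

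The gene lists, the rule for named genes and the comparisons were chosen with earlier results of these data known. Counts were analysed in R 4.3.3 with edgeR 4.0.16 (filterByExpr, TMM, glmQLFit and glmQLFTest) over all 4 groups, with replicate number as a block and libraries 2 and 3 of a group summed to 1 sample, giving 8 samples and 13173 genes tested. P-values were adjusted by Benjamini-Hochberg over all genes tested. Differences are log2 gpSSPC minus pSSPC ± SE, so values above 0 are higher in gpSSPCs, and CPM values are scaled by TMM library sizes. A difference was kept where both genotypes passed with the same sign, and narrowed or widened where the interaction passed. The block was used because same-numbered CKO libraries deviated together over 9890 genes (correlations 0.58, 0.56 and 0.55 for numbers 1, 2 and 3). Numbers 2 and 3 also correlated with each other across populations (0.54), and number 1 correlated negatively with both (-0.56 and -0.57). Because libraries 2 and 3 of a group were nearly alike, all these values rest on libraries 1 standing apart. They are therefore not separate evidence of pairing by each number. The labels do not say what a number shares.

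Named genes were up to 10 in each direction with the largest absolute difference in CKO (adjusted p under 0.05, at least 20 CPM in every library of the higher population, no overlap), up to 5 narrowed and 5 widened or turned by smallest interaction p, the targeted and sort genes, and genes the study named for its RNA-seq. The rule for lists was 2 to 4 members that passed the test, plus members that carry the sense of the group. The latter were picked by judgement, so several lists have more than 4 named members. Genes with Gm, Rik, mt- or ps symbols were skipped. DESeq2 1.42.0, RLE size factors, no count filter, thinned counts, each library as a sample, no block, CKO libraries alone, left-out replicates and the study's thresholds were the alternatives, and for promoters a window of 1000 bases on each side and peaks with a −log10 q-value of at least 5. Gene coordinates are from GENCODE and promoter sequences from RefSeq, both on GRCm38.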

Additional observations from a re-analysis of the deposited data

Results flagged for a closer look

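For 2 genes, the difference between gpSSPCs and pSSPCs itself differed between CKO and control cells by a test of the interaction (edgeR quasi-likelihood test with the replicate block). The tissue difference of Serpina1d was larger in CKO by 2.02 on the log2 scale (3.18 ± 0.23 against 1.15 ± 0.22, interaction adjusted p = 0.0036), and the sign was the same in each library number. The tissue difference of Cst3 was larger in CKO by 1.20 on the log2 scale (2.01 ± 0.15 against 0.82 ± 0.15, interaction adjusted p = 0.019). DESeq2 with the block gave an adjusted p of 0.25 for Serpina1d and 0.62 for Cst3. Serpina1d shares stretches of sequence with its copies, and its part in the value was not tested.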

How the results depend on the processing

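Without the replicate block, 0 genes were called in CKO, in control, in the interaction and in both genotypes together. In CKO, 511 genes were called by DESeq2, 1475 with each library as a sample, 541 with CKO libraries alone and 1524 with the study's thresholds, against 311. The study's thresholds (unadjusted p below 0.05, log2 difference over 0.25) were set on the edgeR fit used here. The study itself used DESeq2 and compared the genotypes, so only its cut-offs were taken over. In control, 918 were called by DESeq2, 2074 with each library as a sample and 1875 with the study's thresholds, against 476. The interaction called 1 gene with RLE size factors, 1 with DESeq2, 1 with thinned counts, 23 without a count filter, 13 with each library as a sample, 648 with the study's thresholds and 1 to 3 with replicate 2 or 3 left out, against 2. With each library as a sample, 828 genes were called with the same sign in both genotypes, against 214. The causes were not tested, apart from the larger sample number that counting libraries 2 and 3 separately gives by construction. The other counts stayed within 1.5 times: 278 to 372 genes in CKO and 411 to 540 in control under RLE size factors, no filter and thinning, and 308 to 316 and 464 to 474 with replicate 2 or 3 left out. The count kept in both genotypes was 195 to 262 under these settings and DESeq2. No named gene that passed its test changed sign. Among differences in CKO that did not pass, that of Cxcl9 went from 0.08 to -0.16 with CKO libraries alone and lay between -0.048 and 1.22 with a replicate left out, that of Lrp4 from 0.12 to -0.30 with each library as a sample and -1.19 without replicate 1, that of Slurp1 from 0.38 to -0.075 without the replicate block, and those of Bcl3 and Tnn from 0.85 and 0.67 to -0.26 and -0.005 without replicate 1. Leaving out replicate 1 leaves 1 sample a group and no residual degrees of freedom, so it gives values and no test. Then 310 of the 311 called genes kept their sign, and 53 of 136 values of named genes moved by more than their standard error. Of the same values, 102 of 136 lost their call without the replicate block, 16 with DESeq2, 8 with RLE size factors and 7 with thinned counts. The 136 values include differences that had not passed to begin with, so these are not shares of the calls. Without the block no value kept a call. Of the 10 largest differences in each direction, 7 of 17 with a matched promoter had a peak in more libraries of the population with higher RNA, and 8 and 7 under the other window and threshold, against 0, 0 and 1 with a peak in more libraries of the other population. Depth limits genes of a few counts, such as Zmpste24 in libraries 1, where 0 to 11 counts were seen.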
